A study of Mus musculus with 36 samples.

Results

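Cytochrome P450 enzymes of families 2, 3 and 4 were followed in postnatal mouse kidney through every gene of the deposited count table whose symbol starts with Cyp2, Cyp3 or Cyp4, a subfamily letter and a number. There were 28 such genes among 18049 listed genes: 14 of family 2, 1 of family 3 and 13 of family 4, in 15 subfamilies. All were protein-coding genes, and 19 of the 28 had the same start and end in the GENCODE M21 annotation as in the deposited table. The table also listed 14 genes of other P450 families.

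Total RNA of whole kidneys came from C57BL/6 mice aged 0, 3 or 12 days (P0, P3, P12). Of the 4 genotypes, wild type carried no mutation, Pkd1-RC/RC and Pkhd1-/- mice were homozygous for 1 mutation each, and digenic mice were homozygous for both. Each of the 12 groups of age and genotype held 3 libraries of 1 mouse each, 36 in all. Pkd1 makes polycystin-1, whose mutations cause most cases of the dominant disease with kidney cysts, and its RC allele is a hypomorphic point mutation. Pkhd1 makes fibrocystin, whose loss causes the recessive form. The labels name no Cre or transgene and give no line of origin beyond the strain, and the series is about the genetic interaction of the 2 genes.

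These enzymes sit in the endoplasmic reticulum, hold a haem group and use electrons from cytochrome P450 reductase to insert oxygen into lipids, steroids and foreign compounds. In the kidney, Cyp2c and Cyp2j enzymes turn arachidonic acid into epoxyeicosatrienoic acids, which relax vessels and raise sodium excretion. Cyp4a and Cyp4f enzymes hydroxylate the end of fatty acid chains and give hydroxyeicosatetraenoic acids, which act on vessel tone and salt transport. Many are made mainly in the proximal tubule.

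Levels are given as CPM, the count as a share of the library's total, scaled by the TMM method over all 36 libraries. Where genes are compared with each other, the level is RPKM, which also divides by the transcript length in the deposited table. A change is a log2 fold change ± SE from edgeR's quasi-likelihood test on the counts, and calls were made where the p-value, adjusted by Benjamini-Hochberg across the genes tested in that comparison, was under 0.05. Mutants were compared with wild type of their age in a fit of the 12 libraries of that age. Since a library is 1 mouse, p-values measure the spread between mice. Where groups are said not to overlap, this describes the values of the gene named and is no test. No share of all genes without overlap is given.

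Total counts ran from 51411240 to 80789299 per library. Pkhd1 had a mean of 73.9, 85.4 and 217 CPM in wild type at P0, P3 and P12, of 7.62, 7.51 and 19.7 CPM in Pkhd1-/- and of 10.1, 10.9 and 24.1 CPM in digenic kidneys, as the labels have it; the point allele of Pkd1 cannot be checked by its level. In 2 libraries the column header differs from the label, and the labels were used. The header of P12 digenic replicate 1 says P3, and that of P12 Pkd1-RC/RC replicate 2 says Pkhd1. In both groups the authors' deposited mean counts matched the mean over the libraries with that label in 100% of genes, within 1 count. The sex in the column header matched Xist and Y-linked expression in 33 of 36 libraries, and the others were all of single-mutant groups. All 20 listed proximal tubule markers were above 0 in every library. Adrenal markers summed to 184 to 648 CPM in 8 libraries, among them digenic replicate 3 of P3 and digenic replicates 2 and 3 of P12, and to 16.1 to 92.0 CPM in the others. By Xist and Y-linked genes the P3 digenic mice were 3 females and the P3 wild-type mice 1 female and 2 males, while P12 digenic and wild-type mice were 1 female and 2 males each.

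A few enzymes made up most of the P450 message of these families. Over all 36 libraries the 5 highest were Cyp2j5 (137.9 RPKM), Cyp2d26 (89.3), Cyp4a10 (51.3), Cyp4a14 (45.4) and Cyp4a31 (40.5), which together held 81.0% of the summed RPKM of the 28 genes. Cyp2j5 is an arachidonic acid epoxygenase, and Cyp4a10 and Cyp4a14 are fatty acid hydroxylases induced through the lipid sensor PPAR alpha. In the other subfamilies the leading members were Cyp2s1 (9.59 RPKM), Cyp2e1 (6.63), Cyp4f16 (5.36), Cyp4b1 (3.20), Cyp2c44 (1.65), Cyp4v3 (1.499), Cyp2u1 (1.10), Cyp2r1 (0.536), Cyp2f2 (0.394), Cyp3a13 (0.349), Cyp2t4 (0.297) and Cyp4x1 (0.137). Cyp2r1 is a vitamin D hydroxylase, Cyp2e1 oxidises ethanol and acetone, and Cyp3a13 is a drug-metabolising enzyme and the single family 3 gene listed. A mean under 1 RPKM was found for 8 genes, and 2 genes, Cyp2f2 and Cyp3a13, had under 3 counts in at least 1 library. The summed level of the 28 genes in wild type was 317.4 ± 82.9 RPKM (SD, n = 3) at P0, 365.1 ± 88.5 RPKM at P3 and 632.7 ± 82.7 RPKM at P12.

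**Figure D1:**
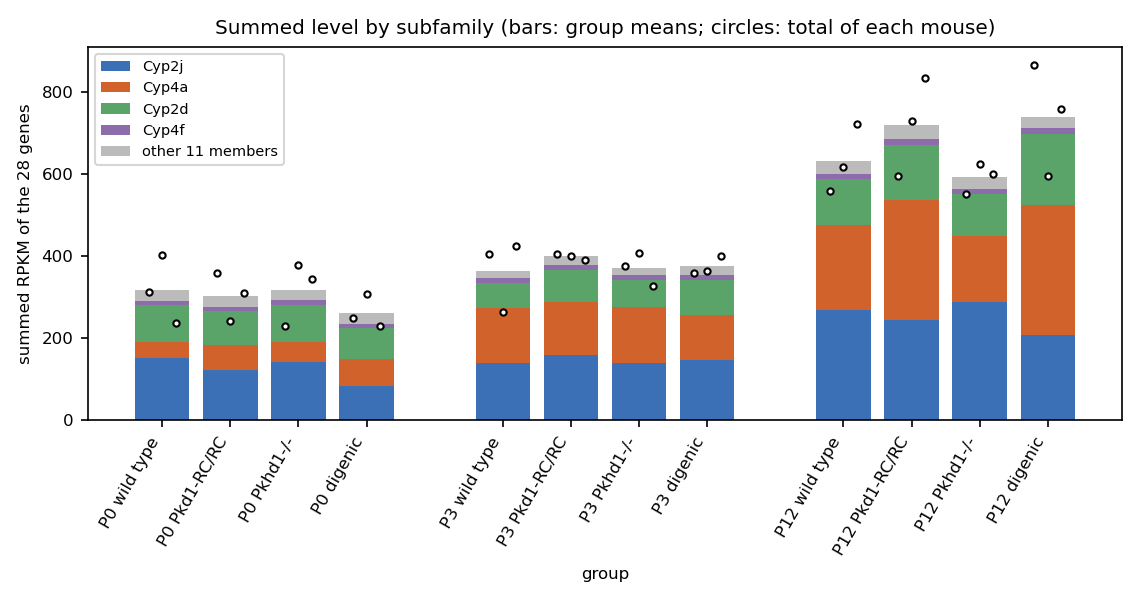
Bars give the mean summed RPKM of the 28 genes in each of the 12 groups (n = 3 mice), split into Cyp2j, Cyp4a, Cyp2d, Cyp4f and the other 11 members, and circles give the total of each mouse. The P12 bars are the highest, and in P12 digenic kidneys the Cyp4a part (317 RPKM) is larger than the Cyp2j part (208 RPKM), while in P12 wild type it is the other way round (206 and 270 RPKM). In P12 Pkd1-RC/RC kidneys the Cyp4a part is also larger than the Cyp2j part, and in P12 Pkhd1-/- kidneys it is smaller.

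In wild-type kidney 3 of the 5 Cyp4a hydroxylases rose in the first days after birth. From P0 to P3, in a fit of all 36 libraries, 3 of the 28 genes rose (10.7%) and 3 fell (10.7%), where 12.8% of all tested genes rose and 11.9% fell. Cyp4a14 stood at 1.30, 3.61 and 1.17 CPM in the 3 mice at P0 and at 116, 53.0 and 126 CPM at P3, a change of 5.57 ± 0.854 (adjusted p = 0.000135), the largest of any member in this comparison. Cyp4a10 went from 9.47, 23.2 and 11.4 CPM to 150, 72.2 and 164 CPM, a change of 3.13 ± 0.711 (adjusted p = 0.00303). Cyp4a32 went from 0.774, 1.37 and 0.756 CPM to 6.78, 3.14 and 7.64 CPM, a change of 2.59 ± 0.560 (adjusted p = 0.00186). For these 3 genes the mice of the 2 ages did not overlap, and P3 replicate 2 was the lowest P3 mouse for each. The neighbouring Cyp4a31 was at 72.2 ± 22.5 CPM at P0 and 76.5 ± 12.6 CPM at P3 (SD, n = 3) and was not called. The falls were those of Cyp2j13 (-1.08 ± 0.346, adjusted p = 0.0229), Cyp2d22 (-0.66 ± 0.223, adjusted p = 0.0302) and Cyp2d26 (-0.56 ± 0.188, adjusted p = 0.0294). The 3 rises were called under every alternative run, with a value of 1.26 (adjusted p = 0.00835) for Cyp4a10, Cyp4a31 and Cyp4a32 with their counts summed. Without wild-type replicate 1 or 2 of P0 or replicate 2 of P3 the 3 falls were not called, and without replicate 1 of P0 or 2 of P3 the count of called members was 3. Of 12 liver markers 1 rose and 6 fell, and of 20 proximal tubule markers 4 rose and 3 fell. Liver markers summed to 128.1, 373.9 and 143.3 CPM in the P0 mice and to 125.7 to 175 CPM at P3. P0 replicate 2, highest in liver markers, was also the highest P0 mouse for each called member. The part of these markers was not tested.

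From P3 to P12 other members rose, among them Cyp2c44, Cyp3a13 and Cyp2j5. Of the 28 genes 9 rose (32.1%) and 2 fell (7.14%), beside 18.6% and 17% of all tested genes, and the median change was 0.42 over the members and 0.03 over all genes. Over the same interval 19 of the 20 proximal tubule markers rose and their summed level went from 5360 to 7158 CPM at P3 to 14040 to 17820 CPM at P12. Of 12 tested liver markers 4 rose, with sums of 125.7 to 175 CPM at P3 and 337.8 to 435.2 CPM at P12, and of 6 endothelial markers 4 rose, with sums of 613 to 631 and 753 to 828 CPM. The part of these shifts in the members' changes was not tested. In bulk tissue, more cells of a type and more RNA per cell cannot be told apart, and the same holds for fewer cells and less RNA. Cyp2c44, an arachidonic acid epoxygenase, rose from 1.33, 0.916 and 0.725 CPM to 4.89, 6.62 and 9.14 CPM (2.80 ± 0.404, adjusted p = 3.84e-06). Cyp3a13 rose from 0.733, 0.284 and 0.634 CPM to 2.64, 3.72 and 2.06 CPM (2.34 ± 0.498, adjusted p = 0.000498). Cyp2j5 rose from 291, 172 and 303 CPM to 495, 507 and 624 CPM (1.09 ± 0.250, adjusted p = 0.00113). In each of these 3 genes every P12 mouse lay above every P3 mouse. Cyp4b1 (0.96), Cyp2d26 (0.91), Cyp2j11 (0.71), Cyp2s1 (0.69) and Cyp4f13 (0.56) rose by smaller steps on the log2 scale, and the call of Cyp2j11 was lost without P3 replicate 2.

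Against this course Cyp2j13 fell again. Wild-type mice held 10.8, 5.43 and 10.2 CPM of it at P3 and 0.830, 1.07 and 0.873 CPM at P12, a change of -3.26 ± 0.392 (adjusted p = 2.57e-07), so that from P0 (19.1, 25.6 and 11.4 CPM) to P12 the 3 ages did not overlap. Cyp2f2, best known from the airway cells in which it activates naphthalene, rose by 3.66 ± 1.32 (adjusted p = 0.0322) between 0.0948 to 0.210 CPM at P3 and 0.981 to 2.55 CPM at P12, and that call was lost without any 1 of the P3 mice or P12 replicate 2 or 3. At P0 and P3 the 5 libraries with adrenal markers above 100 CPM held 0.626 to 3.62 CPM of Cyp2f2, and the other 19 held at most 0.295 CPM. Cyp4x1 fell by 0.96 ± 0.380 (adjusted p = 0.04998) at 0.252 to 0.583 CPM, a call lost when any 1 of the 6 mice was left out. Both lie below the level set for named genes and were chosen after their values were seen. Over all alternatives run the count of called members lay between 8 and 12.

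**Figure D2:**
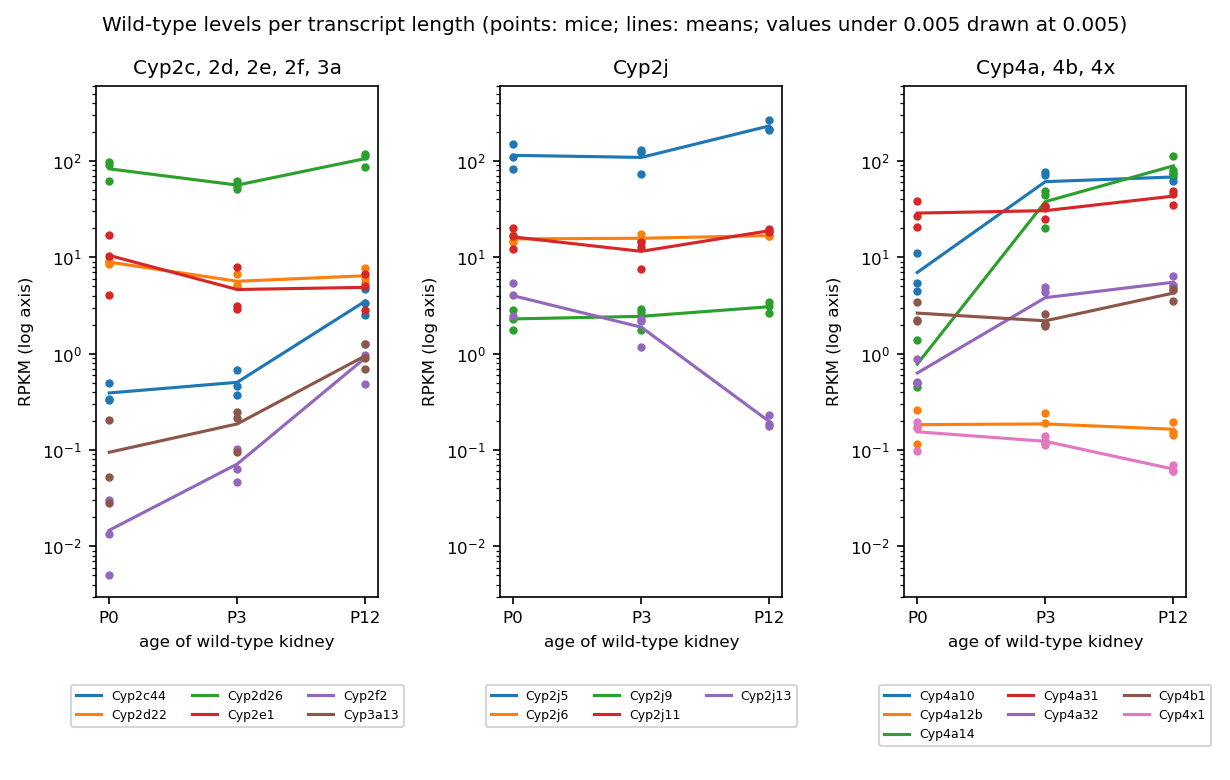
Each panel plots RPKM on a log axis against age for wild-type kidneys, with a point per mouse and a line through the means of n = 3. Cyp4a14, Cyp4a10 and Cyp4a32 climb between P0 and P3, Cyp2c44, Cyp3a13 and Cyp2f2 climb between P3 and P12, and Cyp2j13 descends to 0.197 RPKM at P12.

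Neither single mutation changed a member of these families past the test. In Pkd1-RC/RC kidneys 0 of 27 tested members were called at P0, 0 of 28 at P3 and 0 of 28 at P12 by edgeR, beside 0.0166%, 0.0443% and 0.267% of all tested genes. In Pkhd1-/- kidneys the counts were 0 of 27, 0 of 28 and 0 of 28, beside 0.0111%, 0.0166% and 0.0333% of all tested genes. At an unadjusted p under 0.05 there were 4, 4 and 5 members in Pkd1-RC/RC and 0, 0 and 2 in Pkhd1-/-. No share of all genes at that threshold is given to set beside them. DESeq2 called 0 members in each of the 6 comparisons. The smallest adjusted p of a member was 0.422. Since so few genes of any kind were called in the single mutants, these counts describe the comparison as a whole and not the P450 genes. At P12 the changes of the 28 members ran from -0.51 to 1.18 in Pkd1-RC/RC and from -0.53 to 0.60 in Pkhd1-/-.

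Digenic kidneys at P12 differed in both directions. Of the 28 members 8 rose (28.6%) and 1 fell (3.57%) against wild type, where 12% of all tested genes rose and 11% fell, and the median change was 0.12 over the members and -0.01 over all genes. The 8 rises were those of Cyp2j13, Cyp4f18, Cyp4a12b, Cyp4v3, Cyp4a10, Cyp4a32, Cyp2d22 and Cyp4a31. In each of them all 3 digenic mice lay above all 3 wild-type mice. These genes were picked by their call, so the separation is no support beyond it. The fall was that of Cyp2j5. The other 19 members changed by -1.59 to 0.92 and were not called, with a smallest adjusted p of 0.0670. In the same libraries 12 of 20 proximal tubule markers fell and 0 rose, with summed levels of 8084 to 9756 CPM in digenic and 14040 to 17820 CPM in wild-type kidneys, and 5 of 5 tested macrophage markers rose, with summed levels of 297 to 771 and 135 to 159 CPM. Of 6 endothelial markers 4 fell, with summed levels of 515 to 697 CPM in digenic and 753 to 828 CPM in wild-type kidneys. The part of these shifts in the members' changes was not tested. The count of 9 called members became 4 when wild-type replicate 2 was left out, 5 when replicate 1 of that group was, and 5 in a fit of all 36 libraries. Cyp2j13, Cyp4v3, Cyp4a12b and Cyp4f18 were called under every alternative run.

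**Figure D3:**
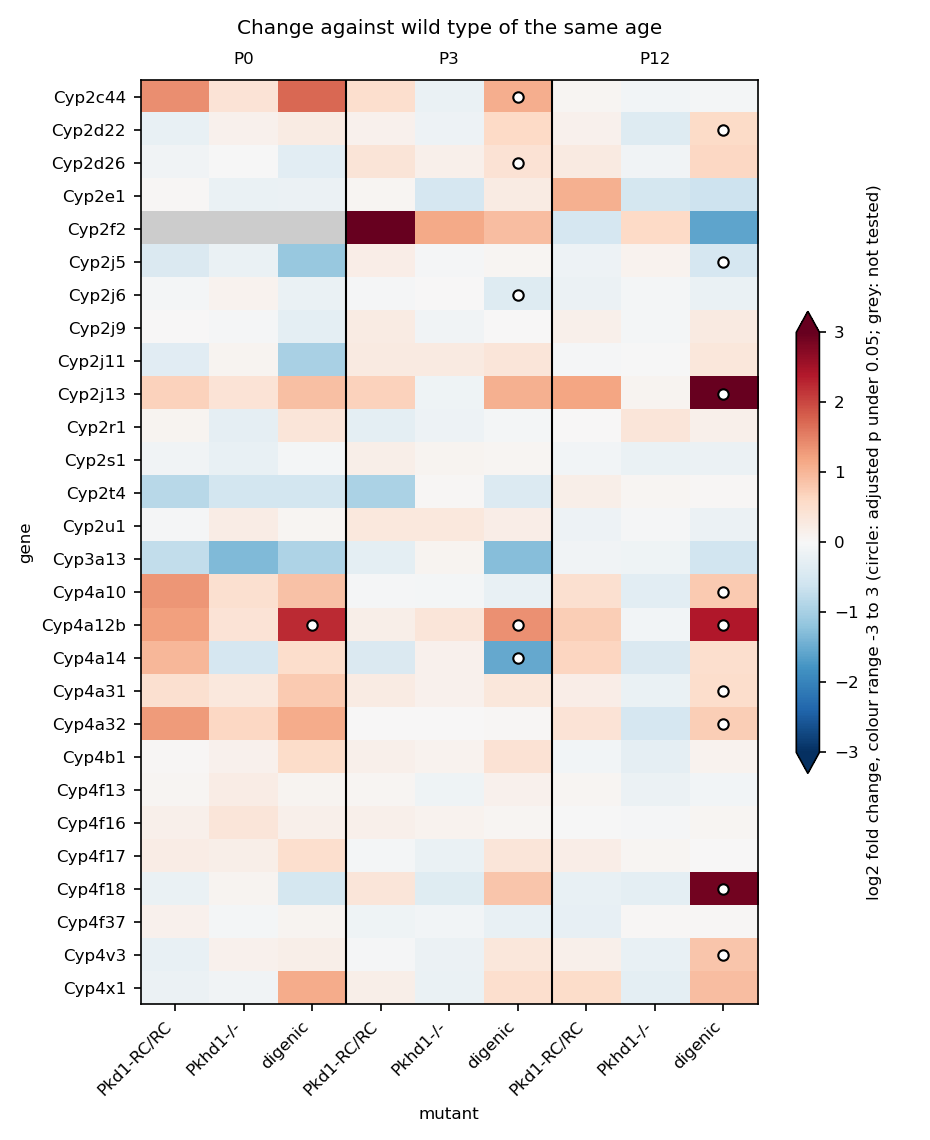
Colours give the log2 fold change of each of the 28 genes (rows) in each mutant against wild type of the same age (columns), red for higher and blue for lower, and circles mark adjusted p under 0.05. The single-mutant columns carry 0 circles, and the digenic columns carry 1 at P0, 5 at P3 and 9 at P12.

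The 2 members at the ends of the Cyp2j cluster moved apart. The 5 Cyp2j genes listed in the deposited table, all on the minus strand, lie within 0.64 Mb of chromosome 4 (mm10), in the order Cyp2j13 (start 96027534, end 96077546), Cyp2j11, Cyp2j6, Cyp2j9 and Cyp2j5 (start 96628773, end 96664154). Cyp2j13 stood at 23.7, 5.54 and 10.2 CPM in the P12 digenic mice and at 0.830, 1.07 and 0.873 CPM in wild type, a ratio of means of 14.2. All 3 digenic mice were above all 9 other P12 mice, with a wide spread among themselves (13.1 ± 9.43 CPM, SD, n = 3). The change was 3.83 ± 0.461 (adjusted p = 0.000244), and over all alternatives run it lay between 3.09 and 4.70. The digenic mice of P12 overlapped in level with wild type of P3, which stood at 10.8, 5.43 and 10.2 CPM. Cyp2j5 stood at 507, 336 and 304 CPM in digenic and at 495, 507 and 624 CPM in wild type, so that 1 digenic mouse lay inside the wild-type range and the other 2 lay below it. Its change was -0.51 ± 0.158 (adjusted p = 0.0359). That call was lost without any 1 wild-type mouse, without digenic replicate 2 or 3 and in the fit of all 36 libraries, and without the libraries with adrenal transcripts, which leaves digenic replicate 1 alone, the change was -0.08 (adjusted p = 0.753). Of the listed genes between these 2, Cyp2j11 (0.33), Cyp2j6 (-0.19) and Cyp2j9 (0.27) were not called, with adjusted p-values of 0.0936, 0.0686 and 0.1405.

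The stretches before the starts of these 2 genes are shown since the genes are paralogs of 1 cluster with opposite calls. They come from RefSeq (GRCm38.p6), which gave promoter windows for 19 of the 28 genes, and end where the GENCODE gene begins. Positions are counted from the RefSeq start, which lies inside the GENCODE gene here. The printed Cyp2j5 stretch therefore ends at -36 and that of Cyp2j13 at -7. In capitals are words searched on both strands in the whole windows of 250 bases before to 50 bases after the start: TATAAA (the TATA box), AGGTCAAAG (a core of the repeat that lipid-sensing receptors and HNF4A bind), CAAAGTCCA (an HNF4A site) and GTTAATNAT (a core of the HNF1 site). The Cyp2j5 window is chr4:96664155-96664369, minus strand, with AGGTCAAAG at bases -197 to -189 from the start and TTTATA, the TATA word on the other strand, at -128 to -123. The Cyp2j13 window is chr4:96077547-96077790, minus strand, and holds none of the 4 words.
Cyp2j5: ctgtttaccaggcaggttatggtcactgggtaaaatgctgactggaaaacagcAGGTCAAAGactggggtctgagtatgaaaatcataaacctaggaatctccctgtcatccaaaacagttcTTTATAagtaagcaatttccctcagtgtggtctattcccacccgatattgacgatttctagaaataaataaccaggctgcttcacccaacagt
Cyp2j13: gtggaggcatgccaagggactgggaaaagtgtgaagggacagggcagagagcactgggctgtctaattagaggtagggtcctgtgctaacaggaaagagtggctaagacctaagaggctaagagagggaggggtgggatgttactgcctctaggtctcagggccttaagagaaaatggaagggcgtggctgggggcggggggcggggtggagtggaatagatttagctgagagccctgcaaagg
AGGTCAAAG was found in 0.43% of 32851 promoter windows and in 1 of the 20 windows of the members. CAAAGTCCA was found in 0.47% and in 0 of them. A match is a description of letters and not of binding.

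In the Cyp4a subfamily Cyp4a10, Cyp4a31, Cyp4a32 and Cyp4a12b were called as higher at P12 and Cyp4a14 was not, 4 of 5 genes, where 12% of all tested genes were called as higher; the subfamily itself was not tested. The 5 Cyp4a genes lie with Cyp4b1 and Cyp4x1 within 0.54 Mb of chromosome 4 (115106323 to 115647723). Cyp4a10 (ENSMUSG00000066072, plus strand, 115518264 to 115533649) stood at 294, 203 and 248 CPM in digenic and at 131, 143 and 158 CPM in wild type (0.79 ± 0.207, adjusted p = 0.0185). Cyp4a32 stood at 16.5, 10.4 and 15.4 CPM against 7.85, 7.64 and 9.89 CPM (0.73 ± 0.209, adjusted p = 0.0239). Cyp4a31 stood at 174, 132 and 163 CPM against 87.6, 114 and 123 CPM (0.53 ± 0.170, adjusted p = 0.0423). In all 3 genes digenic replicate 2 was the lowest digenic mouse and still above wild type. P12 Pkd1-RC/RC mice overlapped with the digenic mice in all 3 genes. They held 132, 216 and 256 CPM of Cyp4a10, 8.41, 10.5 and 14.5 CPM of Cyp4a32, and 109.5, 108 and 155 CPM of Cyp4a31. None of the 3 genes was called between digenic and Pkd1-RC/RC kidneys. Cyp4a14 stood at 390, 272 and 330 CPM against 191, 210 and 293 CPM, overlapped with wild type and was not called (0.51 ± 0.252, adjusted p = 0.170). Cyp4b1 (0.10) and Cyp4x1 (0.92) were not called, with adjusted p-values of 0.771 and 0.181.

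The Cyp4a sequences are close enough that a read can fit several genes. Of all 100-base windows of its transcripts, Cyp4a32 shares 20.06% with other genes, of which 13.77% with Cyp4a10, while Cyp4a10 shares 12.16% and Cyp4a31 7.33%. With the counts of the 3 genes summed, the digenic change at P12 was 0.68 (adjusted p = 0.0180). The rises of Cyp4a10, Cyp4a31 and Cyp4a32 were lost without wild-type replicate 1 or 2 or digenic replicate 1, and those of Cyp4a31 and Cyp4a32 also without digenic replicate 3. In a fit of all 36 libraries the 3 changes were 0.79, 0.53 and 0.74 and were not called (adjusted p = 0.481, 0.178 and 0.373). Without the libraries with adrenal transcripts Cyp4a31 was not called (0.70, adjusted p = 0.0654). Of these genes RefSeq gave a promoter window for Cyp4a32 only, shown as the available example of the cluster: chr4:115600688-115600937, plus strand, with GTTAATGAT at -130 to -122 and TTTATA at -113 to -108 in capitals.
Cyp4a32: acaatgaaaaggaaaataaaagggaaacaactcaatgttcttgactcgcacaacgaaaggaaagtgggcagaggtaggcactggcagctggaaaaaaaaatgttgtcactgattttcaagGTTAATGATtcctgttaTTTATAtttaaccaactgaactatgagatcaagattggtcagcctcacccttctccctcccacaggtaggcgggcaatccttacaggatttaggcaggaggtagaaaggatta
GTTAATNAT was found in 0.80% of all windows and in 1 of the 20 windows of the members, and TATAAA in 13.62% and in 4.

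Cyp4a12b (ENSMUSG00000078597, plus strand, 115411624 to 115439034) was called as higher in digenic kidneys at all 3 ages. It belongs to the pair of Cyp4a12 genes, the main makers of arachidonic acid omega-hydroxylation products in mouse kidney, and shares 36.24% of its 100-base windows with Cyp4a12a, so that its reads may be those of either copy. At P0 it stood at 1.505, 3.27 and 1.40 CPM in digenic and at 0.627, 0.410 and 0.278 CPM in wild type (2.25 ± 0.421, adjusted p = 0.0334). At P3 the values were 0.998, 1.72 and 0.808 CPM against 0.297, 0.458 and 0.583 CPM (1.38 ± 0.334, adjusted p = 0.0477). At P12 they were 3.06, 1.18 and 2.04 CPM against 0.340, 0.473 and 0.367 CPM (2.41 ± 0.384, adjusted p = 0.000942). At each age the 3 digenic mice lay above all 9 other mice. The P3 and P12 levels are below that set for named genes, and those values were chosen after they were seen. The call at P12 was made with any 1 mouse left out, while the call at P0 was made without digenic replicate 3 and lost without any other 1 of the 6 mice, and the call at P3 was made without digenic replicate 3 and lost without any other.

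Cyp4f18 and Cyp4v3, both on chromosome 8, were the remaining family 4 rises. Cyp4f18 (ENSMUSG00000003484, 71988482 to 72009626, minus strand), the leukotriene B4 hydroxylase of neutrophils, stood at 3.44, 1.18 and 2.68 CPM in P12 digenic kidneys and at 0.302, 0.205 and 0.455 CPM in wild type (2.90 ± 0.422, adjusted p = 0.000540), a ratio of means of 7.59. It is below the level set for named genes and was chosen after its values were seen. The summed macrophage markers of the same 3 digenic mice were 721, 297 and 771 CPM, against 135 to 159 CPM in wild type, and the digenic mouse lowest in these markers was the lowest in Cyp4f18. That mouse, replicate 2, was also the lowest digenic mouse for Cyp2j13, Cyp4a12b, Cyp4v3, Cyp4a10, Cyp4a31 and Cyp4a32. It was not the lowest for Cyp2d22. The part of the macrophage markers in the rise was not tested. Cyp4v3 (ENSMUSG00000079057, 45304944 to 45333216, minus strand), the mouse counterpart of the fatty acid hydroxylase mutated in Bietti crystalline dystrophy, stood at 19.4, 14.4 and 17.1 CPM against 9.78, 9.52 and 9.35 CPM (0.83 ± 0.130, adjusted p = 0.000895). The 3 digenic mice of P12 were above all 9 other P12 mice for both genes, and both calls were made with any 1 mouse left out.

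**Figure D4:**
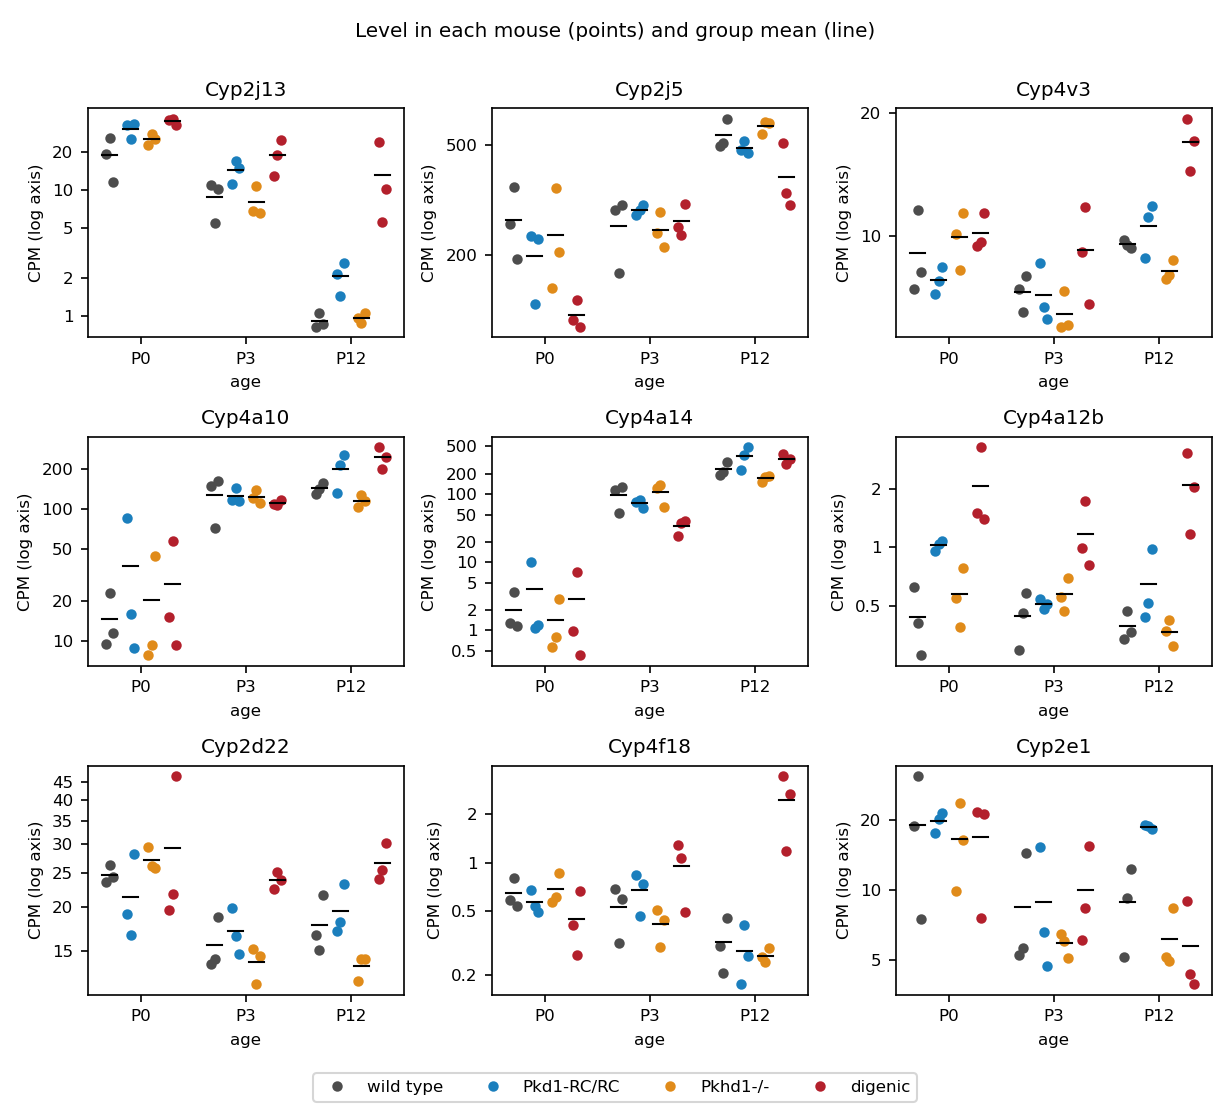
Each panel plots CPM on a log axis for 1 gene, with a point per mouse, a line at the mean of n = 3, and genotypes side by side at P0, P3 and P12. The P12 digenic points of Cyp2j13, Cyp4a12b, Cyp4f18 and Cyp4v3 lie above all other P12 points, and those of Cyp2j5 run from 304 to 507 CPM.

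In the Cyp2d pair, Cyp2d22, the mouse gene closest in function to the human drug-metabolising CYP2D6, rose at P12. Its level was 23.9, 25.4 and 30.3 CPM in digenic and at 16.7, 15.1 and 21.6 CPM in wild type (0.57 ± 0.151, adjusted p = 0.0165), and the call was lost without wild-type replicate 2, digenic replicate 3 or the libraries with adrenal transcripts, and in the fit of all 36 libraries. Cyp2d26 stood at 293, 176 and 337 CPM against 143, 186 and 194 CPM, with 1 digenic mouse inside the wild-type range, and was not called (0.62 ± 0.224, adjusted p = 0.0670). Cyp2e1 stood at 9.03, 4.37 and 3.94 CPM against 5.16, 9.22 and 12.3 CPM and was not called (-0.63 ± 0.360, adjusted p = 0.239). Cyp2f2 had the lowest change of those not called, -1.59 ± 0.620 (adjusted p = 0.0873), at 0.158, 0.418 and 1.23 CPM against 0.981, 2.55 and 1.96 CPM.

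**Figure D5:**
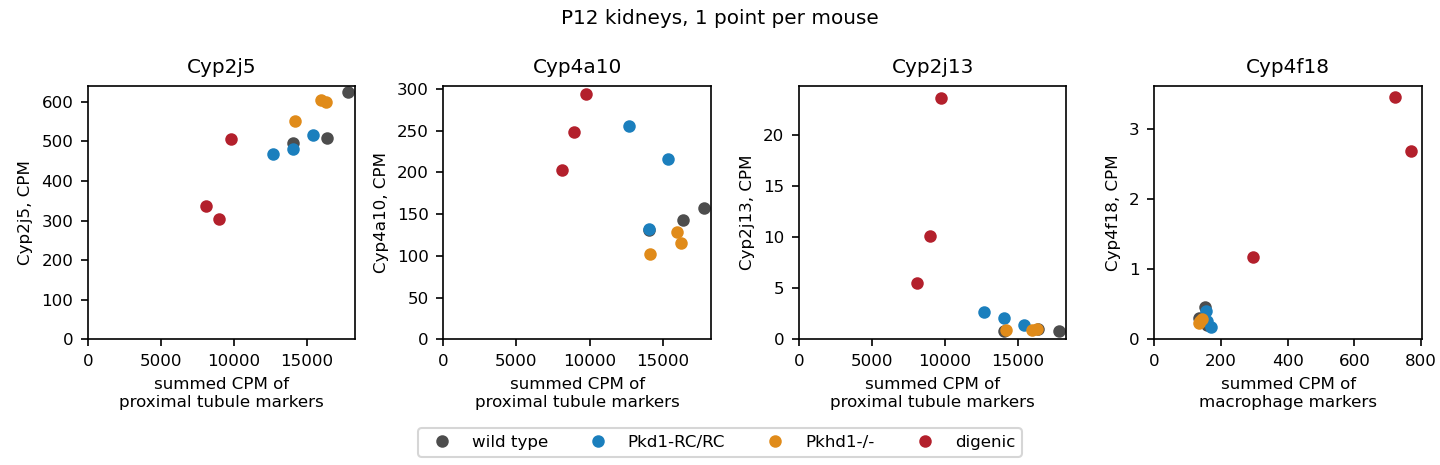
Each panel plots, for the 12 P12 mice, the CPM of 1 gene against the summed CPM of the proximal tubule markers (Cyp2j5, Cyp4a10, Cyp2j13) or of the macrophage markers (Cyp4f18). The digenic mice stand apart at 8084 to 9756 CPM of proximal tubule markers, with Cyp4a10 and Cyp2j13 above wild type there, and their Cyp4f18 values are 1.18, 2.68 and 3.44 CPM at macrophage sums of 297, 771 and 721 CPM.

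Digenic kidneys of P12 were also set against each single mutant. Against Pkd1-RC/RC 4 of 28 members were higher (14.3%) and 1 was lower (3.57%), beside 10.3% and 9.24% of all tested genes. Against Pkhd1-/- 10 were higher (35.7%) and 2 were lower (7.14%), beside 15.5% and 12.6%. These comparisons share the digenic mice with each other and with the comparison to wild type. In each of them 5 of 5 macrophage markers were higher in digenic kidneys, and 10 of 20 proximal tubule markers were lower than in Pkd1-RC/RC and 13 of 20 lower than in Pkhd1-/- kidneys; their part was not tested. Cyp2j13 was higher by 2.65 ± 0.433 against Pkd1-RC/RC, whose mice held 2.15, 1.45 and 2.65 CPM, and by 3.75 ± 0.462 against Pkhd1-/-, whose mice held 0.968, 0.889 and 1.07 CPM (adjusted p = 0.00236 and 0.000209). Cyp4v3 was higher by 0.67 ± 0.130 and 1.05 ± 0.131 (adjusted p = 0.00428 and 0.000161), Cyp4a12b by 1.68 ± 0.370 and 2.498 ± 0.390 (adjusted p = 0.00819 and 0.000635), and Cyp4f18 by 3.12 ± 0.434 and 3.20 ± 0.437 (adjusted p = 0.000910 and 0.000268). These 4 genes were called in both comparisons under every alternative run.

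The rest of the differences depended on the single mutant chosen. Cyp2e1 was lower in digenic kidneys than in those of Pkd1-RC/RC mice, which held 19.01, 18.8 and 18.4 CPM, by 1.70 ± 0.365 on the log2 scale (adjusted p = 0.00925), and the groups did not overlap. The 3 Pkd1-RC/RC mice of P12 were males, a sex term kept the call, and without the libraries with adrenal transcripts the change was -1.04 (adjusted p = 0.106). Against Pkhd1-/- kidneys, Cyp4a32 (1.25), Cyp4a10 (1.10), Cyp2d22 (0.96), Cyp4a14 (0.95), Cyp2d26 (0.74) and Cyp4a31 (0.72) were also higher on the log2 scale in digenic kidneys, and Cyp2f2 (-2.19) and Cyp2j5 (-0.61) were lower. Cyp2j5 stood at 551, 605 and 599 CPM in Pkhd1-/- kidneys, above all 3 digenic mice, and without the libraries with adrenal transcripts its change was -0.18 (adjusted p = 0.489). The call of Cyp2d26 was lost without any 1 of the Pkhd1-/- mice or digenic replicate 1 or 3, that of Cyp4a14 without Pkhd1-/- replicate 1 or digenic replicate 1, and that of Cyp2f2 without Pkhd1-/- replicate 3 or digenic replicate 2. In the fit of all 36 libraries Cyp4a10, Cyp4a14, Cyp4a32, Cyp2f2 and Cyp2j5 were not called against Pkhd1-/-, and without the libraries with adrenal transcripts Cyp4a14 was not called (1.26, adjusted p = 0.0817).

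Whether the digenic change exceeded the sum of the 2 single changes was tested as an interaction at P12. It was called as positive for 4 of 28 members (14.3%) and as negative for 0, beside 5.38% and 3.19% of all tested genes. In the same contrast 5 of 5 macrophage markers were called as positive (median 1.88) and 8 of 20 proximal tubule markers as negative (median -0.65), and their part was not tested. The members were Cyp4f18 (3.41 ± 0.625, adjusted p = 0.00975), Cyp2j13 (2.57 ± 0.619, adjusted p = 0.0295), Cyp4v3 (0.89 ± 0.184, adjusted p = 0.0145) and Cyp2d22 (0.83 ± 0.214, adjusted p = 0.0340). Cyp4f18 and Cyp4v3 were called under every alternative run. The call of Cyp2j13 was lost without wild-type replicate 2 or 3, Pkd1-RC/RC replicate 1 or any 1 Pkhd1-/- mouse, and its value over all alternatives run lay between 1.83 and 3.50. The call of Cyp2d22 was lost in the fit of all 36 libraries, without the libraries with adrenal transcripts and without 7 of the 12 mice in turn. Leaving out wild-type replicate 3, Pkd1-RC/RC replicate 1 or any 1 Pkhd1-/- mouse left 2 called members, and leaving out digenic replicate 2 gave 7.

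At birth 1 member was called in digenic kidneys. Cyp4a12b, described above, was the 1 rise among 27 tested members (3.7%), with 0 falls, beside 0.466% and 0.205% of all tested genes. At an unadjusted p under 0.05 there were 9 members, with no share of all genes at that threshold to set beside them. Cyp2j5 stood at 116, 138 and 110 CPM in digenic and at 260, 352 and 193 CPM in wild type, without overlap, and was not called (-1.14 ± 0.297, adjusted p = 0.0973). Cyp2j13 stood at 35.3, 36.4 and 32.1 CPM against 19.1, 25.6 and 11.4 CPM, without overlap, and was not called (0.89 ± 0.230, adjusted p = 0.0930). Cyp2j11 stood at 17.3, 15.9 and 14.7 CPM against 31.7, 38.5 and 23.5 CPM, again without overlap (-0.96 ± 0.240, adjusted p = 0.0848). The values of these 3 Cyp2j genes were chosen after they were seen. Proximal tubule markers summed to 4368 to 4727 CPM in the P0 digenic mice and to 4585 to 7477 CPM in wild type, and 3 of 20 fell. Macrophage markers summed to 168.5 to 204.4 CPM in digenic and 112.7 to 145.6 CPM in wild type, without overlap, and 1 of 5 rose. The part of these markers was not tested. DESeq2 and the fit of all 36 libraries each called 5 members at P0, against 1 here.

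At P3 the digenic kidneys had 3 rises (10.7%) and 2 falls (7.14%) among 28 members, beside 2.09% and 0.61% of all tested genes. Cyp4a14 stood at 24.4, 38.0 and 40.3 CPM in digenic and at 116, 53.0 and 126 CPM in wild type (-1.53 ± 0.351, adjusted p = 0.0478). Cyp2j6 stood at 45.2, 43.4 and 43.7 CPM against 62.5, 53.4 and 54.5 CPM (-0.38 ± 0.0813, adjusted p = 0.03001). Cyp2c44 stood at 2.48, 2.36 and 1.52 CPM against 1.33, 0.916 and 0.725 CPM (1.09 ± 0.266, adjusted p = 0.0474), and Cyp2d26 at 121, 129 and 129 CPM against 102, 84.02 and 91.4 CPM (0.44 ± 0.106, adjusted p = 0.0467). In each the groups did not overlap. P3 Pkd1-RC/RC mice, at 139, 113 and 109 CPM of Cyp2d26, also lay above all 3 wild-type mice, and that difference was not called. Macrophage markers summed to 185 to 286 CPM in these digenic mice and to 114 to 149 CPM in wild type. Of these 5 markers 2 rose. Of 20 proximal tubule markers 4 rose and 2 fell, with summed levels of 5885 to 6495 CPM in digenic and 5360 to 7158 CPM in wild type. Of 12 liver markers 1 fell and 0 rose, and of 6 endothelial markers 1 fell and 0 rose. The part of these markers was not tested. The digenic mice of P3 were all female and those of wild type mostly male, and with a term for sex 0 of the 5 members were called, with changes of -1.73 for Cyp4a14, -0.37 for Cyp2j6, 1.38 for Cyp2c44, 0.34 for Cyp2d26 and 1.15 for Cyp4a12b. Without the libraries with adrenal transcripts 1 was called, in the fit of all 36 libraries 2, and without digenic replicate 1 or 2 there were 0. Without wild-type replicate 1, 2 or 3 there were 1, 3 and 2.

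The change of the digenic effect from P0 to P12 was tested directly. It was called as positive for 4 members (14.3%) and as negative for 1 (3.57%), beside 5.22% and 3.57% of all tested genes. Of 5 macrophage markers 3 were called as positive in the same contrast, and of 20 proximal tubule markers 2 as positive and 2 as negative; their part was not tested. The positive ones were Cyp4f18 (3.44 ± 0.585, adjusted p = 0.000344), Cyp2j13 (2.94 ± 0.510, adjusted p = 0.000440), Cyp2j11 (1.31 ± 0.310, adjusted p = 0.00790) and Cyp2d26 (0.96 ± 0.265, adjusted p = 0.0223). Cyp2j11 was 0.96 lower than wild type at P0 and 0.33 higher at P12 on the log2 scale, and neither difference was called on its own. The negative one was Cyp2c44 (-1.77 ± 0.543, adjusted p = 0.0385), at 2.80, 3.18 and 1.65 CPM in digenic against 0.669, 0.984 and 0.648 CPM in wild type at P0, and at 9.20, 3.91 and 6.82 CPM against 4.89, 6.62 and 9.14 CPM at P12. P0 Pkd1-RC/RC mice held 2.26, 2.60 and 1.27 CPM of Cyp2c44, above every P0 wild-type mouse and overlapping with the digenic mice. Cyp4f18, Cyp2j13 and Cyp2j11 were called under every alternative run, and 3 members were called without wild-type replicate 1 of P0 or digenic replicate 3 of P12. Without the libraries with adrenal transcripts Cyp2c44 was not called (-1.30, adjusted p = 0.203), and its call was lost without 8 of the 12 mice in turn. The call of Cyp2d26 was lost in the fit of only the libraries compared (0.98, adjusted p = 0.0911) and without wild-type replicate 1 of P0, wild-type replicate 1 of P12 or digenic replicate 1 or 3 of P12.

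Positions were set against the mutated genes. On chromosome 17, 4 members lie 7.91 to 8.33 Mb from Pkd1: Cyp4f17, Cyp4f16, Cyp4f37 and Cyp4f13. Over the 9 comparisons of a mutant with wild type their changes ran from -0.24 to 0.50 and none was called, with a smallest adjusted p of 0.237. No member lies on chromosome 1, which holds Pkhd1. Across all 15 comparisons 21 of the 28 members were called at least once. No share of all genes called at least once is given beside this count. The comparison of wild type at P12 with P3 alone called 6413 of 18049 genes. The 7 never called were Cyp2j9, Cyp2r1, Cyp2t4, Cyp2u1, Cyp4f16, Cyp4f17 and Cyp4f37, which changed by -0.95 to 0.50 in the mutants.

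Of 18 electron donor and haem genes 2 rose and 3 fell in digenic kidneys at P12, with a median of -0.09, where 12% of all tested genes rose and 11% fell. Hmox1, which breaks haem down, rose by 1.26 ± 0.149 (adjusted p = 0.000153), and Uros (-1.02 ± 0.152, adjusted p = 0.000613) and Cpox (-0.53 ± 0.115, adjusted p = 0.00553), both of haem synthesis, fell. Por, the reductase itself, was not called, while in wild type it rose by 0.49 from P3 to P12, where 7 of the 18 rose and 1 fell, beside 18.6% and 17% of all tested genes.

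Of 21 listed receptors and factors that control P450 genes 2 rose and 6 fell in digenic kidneys at P12, with a median of -0.21, beside 12% and 11% of all tested genes. The oestrogen receptor gene Esr1 fell by 1.23 ± 0.121 (adjusted p = 4.94e-05). Nr1i2 and Nr1i3, the drug sensors PXR and CAR, fell by 0.50 ± 0.1502 and 0.39 ± 0.0934 (adjusted p = 0.0290 and 0.0102). Ppara stood at 20.7 ± 4.79 CPM in wild type and 21.3 ± 6.63 CPM in digenic kidneys, and Hnf4a at 428 ± 37.6 and 385 ± 81.8 CPM (SD, n = 3), and neither was called. In wild type 12 of the 21 rose and 1 fell from P3 to P12, beside 18.6% and 17% of all tested genes, and Ppara rose by 1.49.

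Of 19 eicosanoid enzymes outside the P450s 5 rose and 2 fell in P12 digenic kidneys, with a median of 0.15, beside 12% and 11% of all tested genes. Ephx2, the soluble hydrolase that removes epoxyeicosatrienoic acids, fell by 0.72 ± 0.120 (adjusted p = 0.00124), Alox5ap, the partner of 5-lipoxygenase in leukotriene synthesis, rose by 2.27 ± 0.363 (adjusted p = 0.00114), and the prostaglandin D synthase gene Hpgds rose by 1.59 ± 0.257 (adjusted p = 0.00104). Of 45 conjugating enzymes 14 rose and 5 fell, with a median of 0.10, beside the same 12% and 11%. The rises included 6 Ugt1a genes, which share exons and therefore reads, and Nat8 (3.12 ± 0.497, adjusted p = 0.00121) and Ugt2b37 (2.23 ± 0.458, adjusted p = 0.004999), and the falls included the flavin monooxygenase Fmo1 (-1.42 ± 0.201, adjusted p = 0.000623). In wild type from P3 to P12, 17 of the 45 rose and 8 fell, with a median of 0.28, beside 18.6% and 17% of all tested genes. Of the 14 genes of other P450 families 2 rose (Cyp7b1, 0.89 and Cyp1b1, 0.44) and 2 fell (Cyp1a1, -1.52 and Cyp46a1, -1.02), counts near the shares of all tested genes. All of these lists were measured in the same P12 libraries in which the marker sums given above differed, and all of the genes tested had a median of -0.01.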

How the data were processed

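Total RNA of whole kidneys was extracted with the RNeasy kit and sequenced as 150-base read pairs on a HiSeq4000, per the labels' protocols. The deposited gene counts were made by the authors with the MAP-RSeq pipeline, version 2.1.0, per the series' design text, and TopHat2, Bowtie, featureCounts and edgeR are named with the mm10 build in the submitters' processing notes. Strand setting and annotation release: not given in the sources used here. Of the deposited columns, the authors' 36 of normalized values were not used, and their gene lengths served for RPKM.

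Counts were tested with edgeR 4.0.16 (TMM, filterByExpr, robust quasi-likelihood fit) in R 4.3.3, and p-values were adjusted by Benjamini-Hochberg over all genes tested, with a threshold of 0.05. Mutants were tested in the 12 libraries of their age, and comparisons across ages in all 36. Total counts were 51411240 to 80789299 per library. The test was checked on simulated data.

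Text names up to 8 called rises and 8 called falls per comparison among members whose mean log2 CPM was 0 or more, the highest member of each subfamily, members on the chromosomes of the mutated genes and called genes of the lists; other names are marked as chosen after their values were seen. The members and lists were chosen with earlier results of these data known. Alternatives were DESeq2 1.42.0 and its size factors, no filter, a replicate block, a sex term, another set of libraries in the fit and leaving out each mouse. Leaving out libraries with adrenal transcripts and summing Cyp4a10, Cyp4a31 and Cyp4a32 were added after seeing the data. Shared 100-base windows were counted in GENCODE transcripts.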

Additional observations from a re-analysis of the deposited data

Results flagged for a closer look

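At P12 the effect of 1 mutation differed with the other mutation present for 4 members, by the interaction term in edgeR's quasi-likelihood fit. The interaction was 3.41 for Cyp4f18, 2.57 for Cyp2j13, 0.89 for Cyp4v3 and 0.83 for Cyp2d22 on the log2 scale. Of all tested genes 5.38% were called as positive and 3.19% as negative. Under 19 alternatives each, the call was lost in 9 for Cyp2d22, in 6 for Cyp2j13 and in 0 for Cyp4f18 and Cyp4v3.

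The digenic effect differed between P0 and P12 for 5 members, by the test of that difference in the fit of all 36 libraries. The difference was 3.44 for Cyp4f18, 2.94 for Cyp2j13, 1.31 for Cyp2j11, 0.96 for Cyp2d26 and -1.77 for Cyp2c44 on the log2 scale. Of all tested genes 5.22% were called as positive and 3.57% as negative. Under 19 alternatives each, the call was lost in 11 for Cyp2c44, in 5 for Cyp2d26 and in 0 for the other members.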

How the results depend on the processing

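Of 816 alternative values for 58 named changes, 667 kept their direction and side of the threshold, 149 fell below the threshold and 0 reversed. Counts of called members in digenic kidneys at P0 (1) became 5 with DESeq2, 5 in a fit of all 36 libraries, 2 with a sex term, 3 without the libraries with adrenal transcripts and 0 with the replicate block. At P3 (5) they became 2 in the fit of all 36, 1 without the libraries with adrenal transcripts, 0 with the sex term and 0 with the replicate block. At P12 (9) they became 5 in the fit of all 36, of which 4 were shared, and the replicate block gave 9, of which 8 were shared. The change of the digenic effect (5) became 3 in a fit of only the libraries compared. The causes were not tested. Leaving out 1 mouse gave 0 to 1 at P0, 0 to 4 at P3, 4 to 11 at P12, 5 to 7 against Pkd1-RC/RC, 10 to 13 against Pkhd1-/-, 2 to 7 for the interaction, 3 to 7 for wild type from P0 to P3, 8 to 10 from P3 to P12 and 3 to 6 for the change of effect. The 6 single-mutant counts were 0 under every alternative run. Replicate numbers did not pair the mice: of 18 same-number pairs 5, 3 and 7 correlated above 0.1 at P0, P3 and P12. A planned sum of symbols that differ in the final letter could not be run, since the table holds no such pair. Where a group was left with 1 mouse, that mouse was assumed to vary like the other groups. Depth limits Cyp2f2, with under 3 counts in 9 libraries.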
